A study of Mus musculus with 4 samples.

Results

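Cytotoxic lymphocytes store the proteins that kill target cells in secretory granules, and 8 genes for such proteins were followed here: Gzma, Gzmb, Gzmk, Gzmm, Prf1, Srgn, Nkg7 and Ctsw. These are 8 of the 17561 genes in the deposited count table, picked by name, and each was found once by its Ensembl identifier. All 8 had at least 10 counts-per-million (CPM) over all cells, the level that 7604 genes reached.

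The cells were CD8+ T cells sorted from the BM of mice on a C57BL/6 background 28 days after SCT, and each of 4 treatment groups was 1 library made from 5 pooled mice. Recipients and their matched donors were either WT or CRBN transgenic, the latter carrying a modified cereblon through which lenalidomide can act in mice. Per the methods, the mice were female, and recipients had been given the Vk12653 myeloma before transplant. All groups received a transplant of BM and T cells, with either an anti-TIGIT antibody (αTIGIT) or an isotype control (cIg) from the day of transplant, and either lenalidomide or vehicle from day 14. The groups were therefore cIg with vehicle, αTIGIT with vehicle, cIg with lenalidomide, and αTIGIT with lenalidomide. The deposited tables number the libraries from 1 to 4 and name no treatment, so no value is assigned to a treatment. Each library differs from the others in both treatment and pool of mice. The spread between libraries therefore holds both, and they cannot be told apart.

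The table held 106039690 UMIs (unique molecular identifiers, which tag single RNA molecules) from 11754 cells, with 1725 to 4237 cells and 15556967 to 38440687 UMIs in a library. The authors' 8 cluster names were used: naive (Tn), central memory (Tcm), transitory Teff, GzmB+ Teff, GzmA+ Tex, TIGIT+ Teff, TIM-3+ Tex and cycling cells. The authors kept cells by their Cd3e, Cd3g and Cd8a, so these genes are no check of the cell type. Cd8b1, the other CD8 chain, was at 217 CPM in Tcm and at 934 to 1327 CPM in the other clusters. Cd4 was at 1.53 CPM or less. Of the names that refer to a member, GzmB+ Teff had the most Gzmb over all libraries together and in libraries 1, 2 and 4. In library 3 its Gzmb was 587 CPM, below cycling cells (1025 CPM), TIM-3+ Tex (825), TIGIT+ Teff (813) and transitory Teff (661). GzmA+ Tex was below TIM-3+ Tex for Gzma in libraries 1, 2 and 4 and above it in library 3 (539 against 122 CPM). GzmA+ Tex also carried macrophage transcripts, with a summed level of 1388 CPM (925 to 1618 CPM in single libraries) for 6 listed genes that summed to 76.5 CPM or less elsewhere. A TCR was called in 59.1% to 76.2% of the cells of a library, and 56 barcode sequences occurred in more than 1 library (112 cells). With 1 library per treatment and clusters drawn from the same expression values, no test was made, and intervals are 95% intervals that cover counting error only.

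Granzymes are serine proteases that enter a target cell through pores made by perforin, the product of Prf1. Granzyme B cleaves after aspartate and activates caspases, granzymes A and K are tryptases, and granzyme M prefers to cleave after methionine or leucine. Serglycin, encoded by Srgn, is the proteoglycan that holds granzymes and perforin in the granule, NKG7 is a membrane protein of the granule that takes part in its exocytosis, and Ctsw encodes cathepsin W, a cysteine protease of cytotoxic lymphocytes.

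The 4 granzyme genes did not all follow the same pattern across the clusters, so the DNA just before their start sites is shown first, as a reference for the sequences in question. Gzma (ENSMUSG00000023132) and Gzmk (ENSMUSG00000042385) are neighbours on the minus strand of chromosome 13, at chr13:113093825-113100981 and chr13:113171608-113225908 of GRCm38. Gzmb (ENSMUSG00000015437) lies on the minus strand at chr14:56258838-56262260, and Gzmm (ENSMUSG00000054206) on the plus strand at chr10:79689020-79695261. The windows hold the 250 bases before the RefSeq start site (GRCm38.p6), 5′ to 3′ along the gene's own strand, and are chr13:113100982-113101231, chr14:56262335-56262584, chr13:113180966-113181215 and chr10:79688770-79689019 in the order printed. The Gzmk window lies inside the Gzmk span given above, since that span begins further upstream than the RefSeq start site. Capitals mark matches on either strand to short forms of the motifs of T cell factors.
Gzma: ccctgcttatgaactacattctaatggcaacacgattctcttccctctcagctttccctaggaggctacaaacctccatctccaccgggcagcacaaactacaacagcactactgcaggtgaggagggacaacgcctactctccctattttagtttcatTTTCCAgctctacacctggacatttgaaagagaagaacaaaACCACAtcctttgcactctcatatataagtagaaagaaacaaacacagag
Gzmb: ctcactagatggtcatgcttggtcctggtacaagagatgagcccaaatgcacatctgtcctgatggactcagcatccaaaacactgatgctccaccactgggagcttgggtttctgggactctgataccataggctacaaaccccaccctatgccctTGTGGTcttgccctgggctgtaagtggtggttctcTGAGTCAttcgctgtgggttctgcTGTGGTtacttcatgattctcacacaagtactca
Gzmk: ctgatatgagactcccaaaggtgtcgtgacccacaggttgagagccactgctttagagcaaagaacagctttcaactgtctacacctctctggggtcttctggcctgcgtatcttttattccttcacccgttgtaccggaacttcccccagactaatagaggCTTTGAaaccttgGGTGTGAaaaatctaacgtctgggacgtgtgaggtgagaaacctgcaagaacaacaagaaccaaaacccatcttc
Gzmm: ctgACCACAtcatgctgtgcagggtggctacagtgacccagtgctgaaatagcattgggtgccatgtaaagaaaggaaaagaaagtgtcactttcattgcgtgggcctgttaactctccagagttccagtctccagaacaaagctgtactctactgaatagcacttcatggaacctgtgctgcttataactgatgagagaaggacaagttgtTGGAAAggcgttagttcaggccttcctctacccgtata

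The forms searched were TGTGGT for RUNX factors, TCACACC for T-box factors, TGANTCA for AP-1, CTTTGA for TCF and TGGAAA for NFAT, where N is any base. The Gzmb window held 2 RUNX matches and 1 AP-1 match, and the Gzmk window 1 T-box and 1 TCF match. The Gzma and Gzmm windows each held 1 RUNX and 1 NFAT match, and a second RefSeq window of Gzmm (chr10:79693576-79693825, not printed) held 1 T-box match and neither of these. Of all 32851 promoter windows of this length, 14.0% held the RUNX form, 3.33% the T-box form, 6.75% the AP-1 form, 13.8% the TCF form and 18.6% the NFAT form. A match is a run of letters and no evidence of binding. RefSeq promoters were found for 7 of the 8 members, the exception being Ctsw.

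Gzma, Gzmb and Gzmk were low in Tn and Tcm and high in every Teff and Tex cluster. Gzma was at 39.1, 12.4, 13.4 and 10.1 CPM in Tn of libraries 1 to 4, and at 1069, 605, 383 and 536 CPM in the 5 Teff and Tex clusters combined. Gzmb was at 73.5, 24.4, 29.0 and 52.3 CPM in Tn and at 463, 353, 690.1 and 433 CPM in the Teff and Tex clusters. Gzmk was at 19.1, 44.4, 21.6 and 19.7 CPM in Tn and at 469, 431, 442 and 481 CPM in the Teff and Tex clusters. For each of these granzymes the highest Tn library was far below the lowest library of the Teff and Tex clusters.

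Gzmm went the other way. It was at 194, 153, 173 and 172 CPM in Tn, and at 39.9, 63.3, 67.2 and 42.7 CPM in the Teff and Tex clusters of the same libraries. Every Tn library was above every library of the Teff and Tex clusters.

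A gene was counted as different when its log2 ratio over all libraries, with 5 CPM added to both sides, was 1 or more in size and had the same sign in each library. On this rule 5 of the 8 members were higher in the Teff and Tex clusters than in Tn (Gzma, Gzmb, Gzmk, Prf1 and Nkg7), where 6.01% of all 7604 genes were. Gzmm was the 1 member that was lower, a direction found in 0.526% of genes. The log2 ratio of Gzmm was -1.73 over all libraries, and -2.15, -1.21, -1.31 and -1.89 in libraries 1 to 4. The median log2 ratio of the 8 members was 1.30, beside 0.26 for all genes tested. Srgn (0.86) and Ctsw (0.09) did not reach the limit. Giving every clonotype the same weight, over cells with a TCR, put both Prf1 (0.84) and Gzmm (-0.96) just under the limit.

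**Figure D1:**
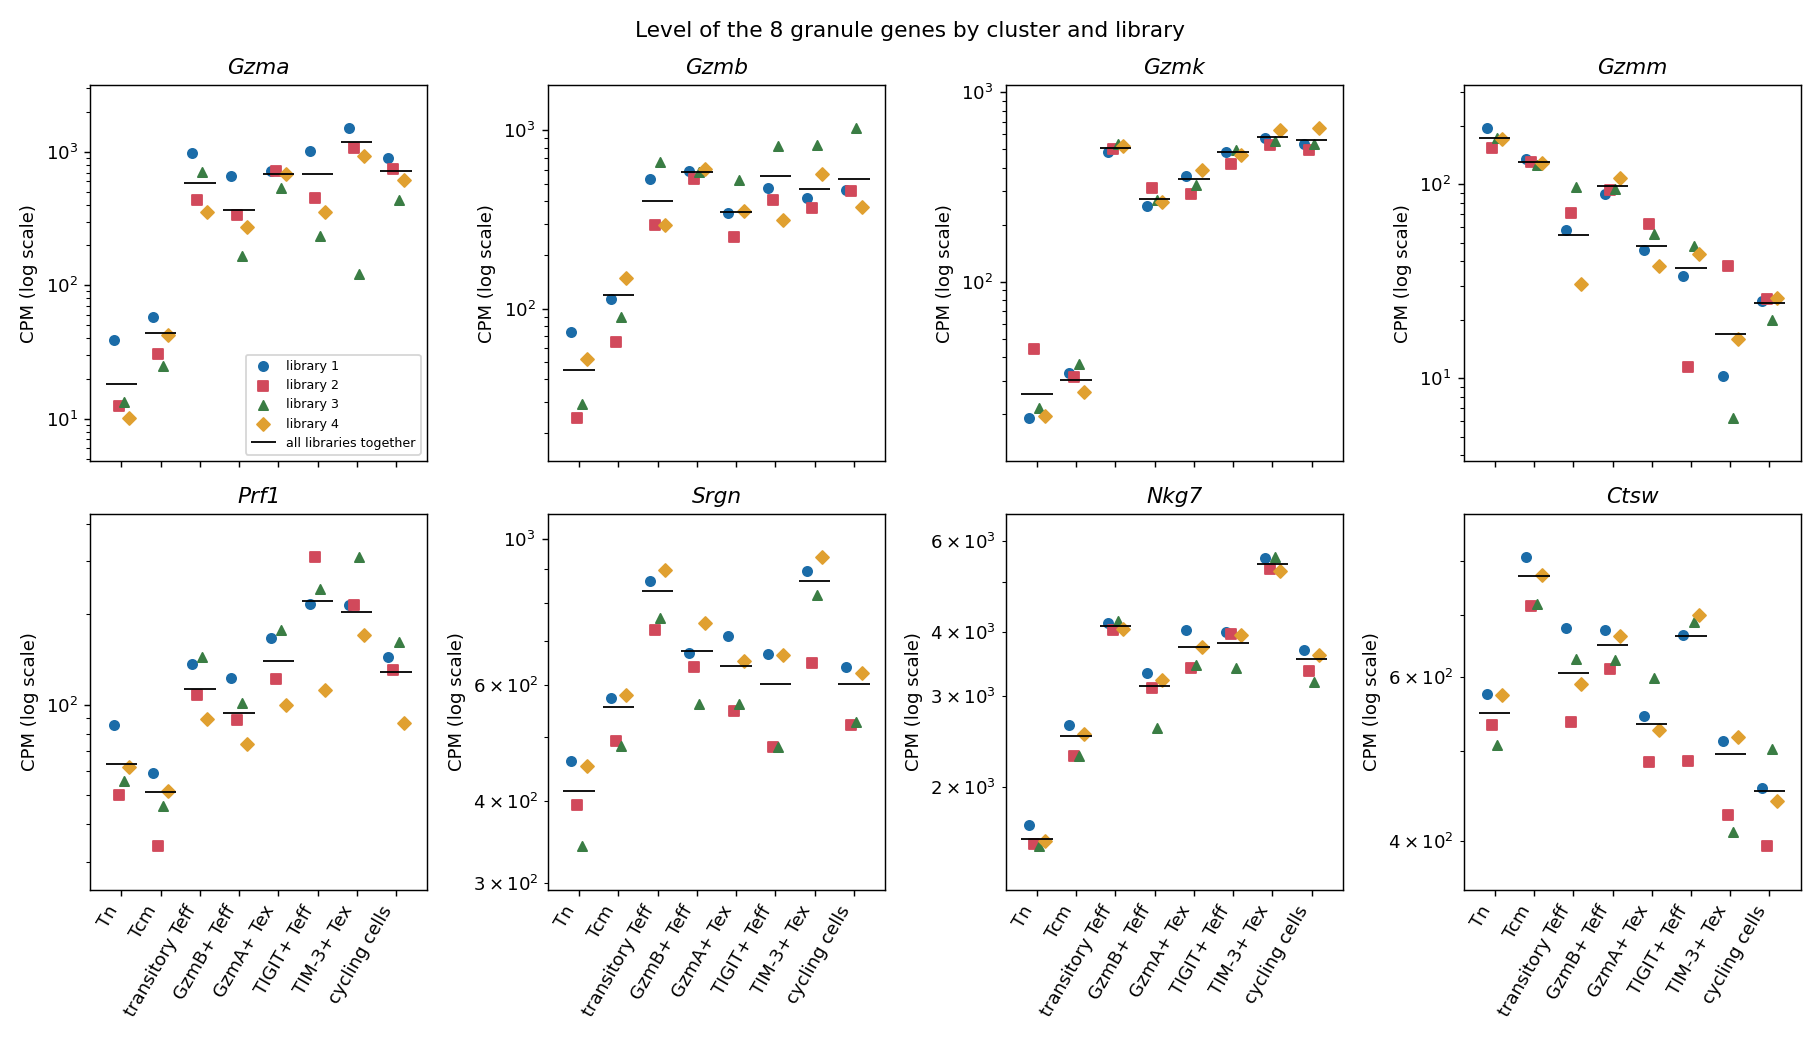
Level of each granule gene in CPM (log axis, scaled for each gene) in the 8 clusters, with 1 point per library and a line for all libraries together. Gzma, Gzmb and Gzmk are lowest in Tn and Tcm, Gzmm is highest in Tn and then Tcm in every library, and the libraries lie far apart for Gzma in TIM-3+ Tex (122 to 1500 CPM).

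Gzmk varied least between libraries among the granzymes in TIM-3+ Tex and transitory Teff. In TIM-3+ Tex it was at 574, 524, 550.0 and 632 CPM in libraries 1 to 4, and in transitory Teff at 486, 499, 534 and 520.4 CPM. The highest library of these clusters was 1.20 and 1.10 times the lowest. The order was TIM-3+ Tex, cycling cells, transitory Teff, TIGIT+ Teff, GzmA+ Tex, GzmB+ Teff, Tcm and Tn. In that order, transitory Teff was above TIGIT+ Teff, TIGIT+ Teff above GzmA+ Tex, and GzmB+ Teff above Tcm in all 4 libraries, and the other neighbours changed places in 1 library. An opposite-strand gene, Esm1, overlaps Gzmk, and whether the counting used strand is not given in the sources used here.

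Gzma was highest in TIM-3+ Tex over all libraries together (1192 CPM), but this rested on 3 libraries. The values were 1500, 1068, 122 and 937 CPM, and library 3, which had 31 cells in the cluster, had less Gzma there than in its own transitory Teff (710 CPM). The remaining order was cycling cells (724 CPM), TIGIT+ Teff (686), GzmA+ Tex (684), transitory Teff (587), GzmB+ Teff (369), Tcm (44.2) and Tn (18.3). The first 5 of these 8 clusters changed places between libraries, while transitory Teff was above GzmB+ Teff, GzmB+ Teff above Tcm, and Tcm above Tn in every library.

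Gzmb showed a library difference of its own. Library 3 had the highest Gzmb in 5 clusters: transitory Teff (661 CPM against 293 to 535 in the others), GzmA+ Tex (525 against 252 to 352), TIGIT+ Teff (813 against 312 to 476), TIM-3+ Tex (825 against 365 to 569) and cycling cells (1025 against 372 to 463). In GzmB+ Teff the 4 libraries were close, at 594, 535, 587 and 608 CPM. No pair of neighbours among the 6 activated clusters, ordered by Gzmb, kept its order in all 4 libraries. GzmA+ Tex, the lowest of these over all libraries, was above Tcm, and Tcm above Tn, in every library.

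Gzmm fell in order from Tn (173 CPM) and Tcm (131) through GzmB+ Teff (98.0), transitory Teff (54.8), GzmA+ Tex (48.3), TIGIT+ Teff (37.2) and cycling cells (24.4) to TIM-3+ Tex (16.9). Tn was above Tcm, and Tcm above GzmB+ Teff, in all 4 libraries with no overlap of the library values. The later neighbours changed places in 1 library each. In TIM-3+ Tex the libraries had 10.2, 37.8, 6.25 and 16.0 CPM, all below the 30.6 to 97.3 CPM of transitory Teff except library 2.

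TIM-3+ Tex and transitory Teff differed in 1 of the 8 members by the rule above, which is Gzmm (log2 ratio -1.45, and -3.18 to -0.76 in single libraries). Among all genes 1.03% differed. The Gzma ratio was 1.02 over all libraries and 0.61, 1.29, -2.49 and 1.39 in libraries 1 to 4, so it was not counted. Without library 3 the ratio was 1.09 and Gzma was counted as well. Cells whose clonotype occurred in both clusters of a library, a restriction added after the data were seen, gave 0 members, with Gzmm at -0.71. The members' median log2 ratio was 0.22, beside 0.04 for all genes tested.

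Cycling cells differed from the Teff and Tex clusters in 0 of the 8 members, where 4.71% of all genes differed. The ratio nearest the limit was that of Gzmm, at -0.87, and it passed in 3 settings: without library 1 (-1.02), without cells carrying macrophage or plasma cell transcripts (-1.11), and with each clonotype counted once (-1.13). CPM does not show that cycling cells were large, with a median of 13960 UMIs against 6820 in the Teff and Tex clusters. As UMIs per cell, cycling cells had a log2 ratio of 0.71 for Gzma, 0.91 for Gzmb and 0.998 for Gzmk. Cycling cells were 16.4% of all cells with 25.3% of all UMIs, and held 37.4% of all Gzma, 37.9% of all Gzmb and 42.0% of all Gzmk UMIs. They held 8.22% of the Gzmm UMIs, of which Tn and Tcm together held most (23.7% and 42.0%).

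Next, the number of cells that carried each granzyme was compared with the level. Every cell was thinned at random to 2500 UMIs so that depth could not set the share. The share of Tn cells with at least 1 Gzma UMI was then 4.17% (median of 7834 UMIs before thinning). It serves as a level for comparison only, because free RNA was not measured apart from expression in Tn. The Tn share was higher in library 1 (10.9%) than in libraries 2, 3 and 4 (1.55%, 2.30% and 2.08%). In transitory Teff of library 1 the share was 30.1%, above the Tn share of that library. Gzma was found in 20.4% of transitory Teff cells (18.6% to 22.3%; 27.8% before thinning; median of 5545 UMIs) and in 34.8% of TIM-3+ Tex cells (32.0% to 37.8%; 46.0% before thinning; median of 8434 UMIs). Gzmk was found in 4.84% of Tn cells (10.2% before thinning), 61.6% of transitory Teff cells (79.5%) and 72.8% of TIM-3+ Tex cells (93.8%). For Gzmb the shares were 7.60%, 41.3% and 54.5% (18.0%, 54.3% and 77.1% before thinning). For Gzmm they fell, from 23.8% in Tn to 7.99% and 2.37% (42.0%, 13.7% and 7.67% before thinning).

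Gzma was concentrated in few cells. In transitory Teff a cell with Gzma had 8.26 UMIs of it on average, and the 5% of cells with the most Gzma held 72.2% of its UMIs. For Gzmk the same numbers were 2.19 UMIs and 21.6%, and for Gzmb 2.73 UMIs and 38.9%. Cells with 10 or more Gzma UMIs after thinning made up 5.66% of transitory Teff (3.59% to 8.98% in single libraries), 9.19% of TIM-3+ Tex (0 to 10.5%), and 5.29% of cycling cells (1.44% to 7.86%). In Tn there were 0 such cells of 1342 (interval up to 0.275%). The class is a range and not a cell type, since 98 further transitory Teff cells had 3 to 9 Gzma UMIs.

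**Figure D2:**
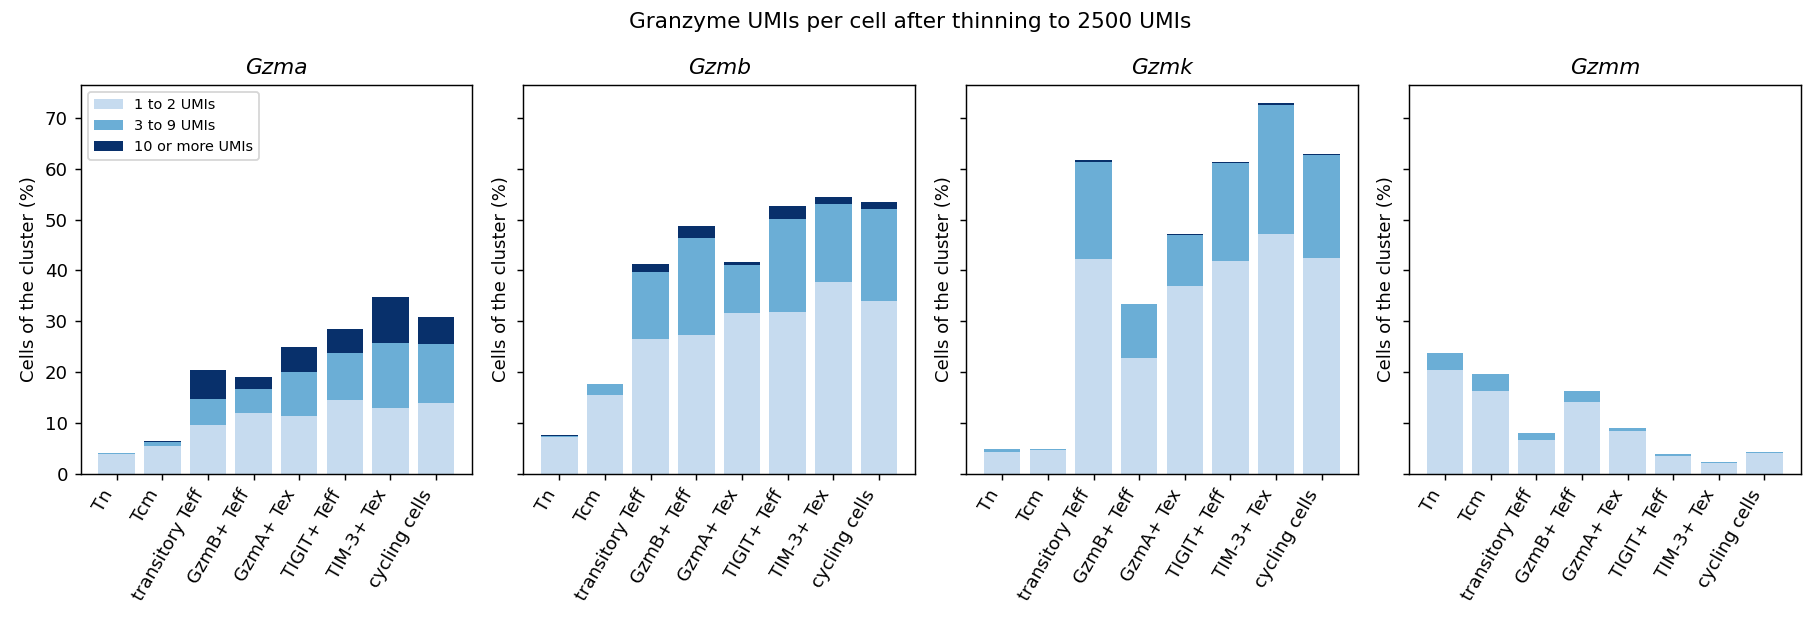
Share of cells in each cluster (percent) with 1 to 2, 3 to 9, and 10 or more UMIs of each granzyme after thinning every cell to 2500 UMIs. Cells with 10 or more UMIs make up 5.66% of transitory Teff for Gzma and 0.317% for Gzmk, although 61.6% of these cells had Gzmk.

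The transitory Teff cells with 10 or more Gzma UMIs were also rich in Gzmb. The 1505 transitory Teff cells with no Gzma UMI had 272 CPM of Gzmb, and the 107 cells with 10 or more had 1544 CPM. In libraries 1 to 4 the values were 307 and 1977, 224 and 729, 497 and 1203, and 227 and 1539 CPM. All 4 libraries showed the same direction without overlap between the classes. The 88 of these 107 cells with a TCR belonged to 63 clonotypes, and without the largest, which held 12 cells, Gzmb was at 1511 CPM. Gzmk was higher by a smaller amount (696 against 477 CPM), and so were Nkg7 (4869 against 4026 CPM) and Prf1 (223 against 103 CPM). Transcripts of an NK cell list (Ncr1, Klrb1c, Klre1, Tyrobp, Fcer1g and Klra8) moved with the class, at 320 against 167 CPM in all libraries together and higher in each library, and their part in the result was not tested. Conversely, the 186 transitory Teff cells with 2 or more UMIs of this list had 1112 CPM of Gzma and the 1442 cells with none 481 CPM, in the same direction in each library. Over all transitory Teff cells, Ncr1 and Klra8 were each at 0.461 CPM, and Klre1 was the highest of the list at 126 CPM. Klrb1c, Tyrobp and Fcer1g lay between. These are values of the whole cluster, and the single genes of the list were not compared between the Gzma classes.

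TIM-3+ Tex did not show the same difference. There, cells with no Gzma UMI had 460.5 CPM of Gzmb and the 97 cells with 10 or more had 492 CPM. In libraries 1, 2 and 4 the values were 415 and 427, 339 and 368, and 540 and 660 CPM, and library 3 had no cell with 10 or more. Gzmk was higher in the Gzma-rich cells, at 756 against 544 CPM. In cycling cells Gzmb was again higher, at 1116 against 406 CPM, with 1152 against 323, 1286 against 326, 1233 against 865, and 865 against 297 CPM in libraries 1 to 4. The difference between clusters was not tested.

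Granzymes were then counted per cell. Of Gzma, Gzmb and Gzmk, a thinned cell had none in 85.2% of Tn (83.2% to 87.1%), 74.8% of Tcm, 23.0% of transitory Teff and 10.2% of TIM-3+ Tex (8.47% to 12.2%). All 3 were found together in 0.149% of Tn, 9.78% of transitory Teff, 15.8% of TIM-3+ Tex and 14.8% of cycling cells. GzmB+ Teff had more cells without any of the 3 (37.0%) than the other activated clusters over all libraries together.

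Co-detection was measured as the odds ratio that a cell with one gene also had the other, within the 5066 Teff and Tex cells and computed inside each cluster and library, so that differences between clusters do not enter. Of the 6 granzyme pairs, Gzma and Gzmb had the highest odds ratio, 2.35 (2.05 to 2.69), with 1.72 to 3.76 in single libraries. Both were found in 15.8% of cells, where independence within clusters would give 12.1%. With 1 cell drawn per clonotype, library and cluster the odds ratio was 3.56. Gzmb with Gzmk (1.88; 1.64 to 2.47 in single libraries) and Gzma with Gzmk (1.72; 1.44 to 2.23) were also above 1 in all 4 libraries. Each odds ratio pools the clusters, and none was computed for a single cluster. The clusters were not alike for Gzma and Gzmb. In transitory Teff, 263 of the 386 cells with Gzma had Gzmb, as did 781 of all 1891 cells. In TIM-3+ Tex the counts lay closer, with 213 of 368 cells and 575 of all 1056 cells.

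Gzmm stood apart from Gzmk within cells as it did between clusters. The odds ratio of Gzmk and Gzmm was 0.535 (0.426 to 0.670), and 0.512, 0.662, 0.549 and 0.419 in libraries 1 to 4. With Gzma the odds ratio of Gzmm was 1.32, and between 0.889 and 2.03 in single libraries. With Gzmb it was 0.876, and between 0.535 and 1.32. Hence Gzmk was the granzyme whose odds ratio with Gzmm lay on the same side of 1 in each library.

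**Figure D3:**
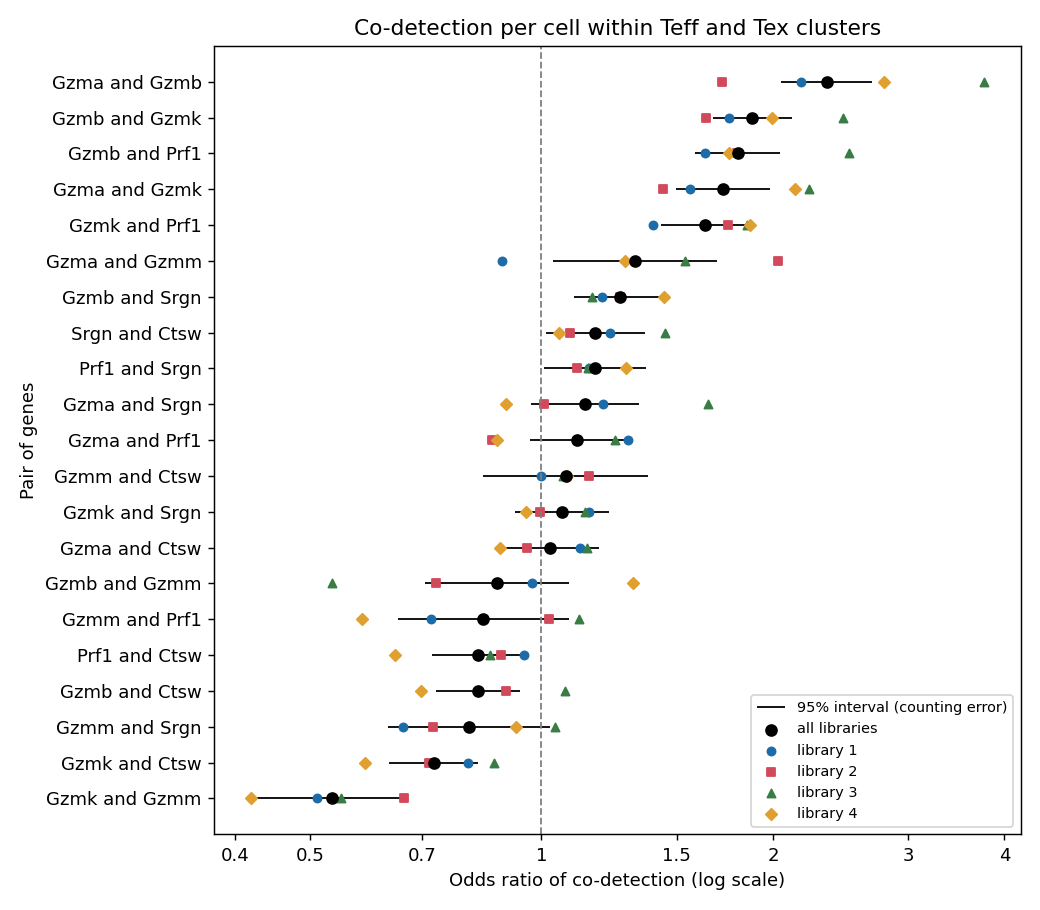
Odds ratio of finding both genes of a pair in the same thinned cell (log axis), within cluster and library of the Teff and Tex clusters, for 21 pairs. Black points are all libraries with 95% intervals for counting error, and coloured points single libraries. Pairs with Nkg7 are left out because nearly all cells had it. Gzma with Gzmb is at the top (2.35) and Gzmk with Gzmm at the bottom (0.535).

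Prf1 (ENSMUSG00000037202; plus strand, chr10:61297833-61304680) was at 85.6, 49.9, 55.8 and 62.1 CPM in Tn of libraries 1 to 4 and at 59.1, 33.8, 46.2 and 51.8 CPM in Tcm. Tn was thus above Tcm in each library, which is the reverse of Gzma and Gzmb. Prf1 was found with Gzmb (odds ratio 1.80; 1.63 to 2.51 in single libraries) and with Gzmk (1.63; 1.39 to 1.87) more often than independence within clusters would give. With Gzma the odds ratio was 1.11, and 0.862 to 1.30 in single libraries. The share of Teff and Tex cells with Prf1 was 18.3% where none of Gzma, Gzmb and Gzmk was found, 26.1% with 1 of them, 37.5% with 2 and 37.1% with all 3. The intervals for 2 and 3 granzymes overlapped (35.0% to 40.0% and 33.1% to 41.2%).

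Srgn (ENSMUSG00000020077; minus strand, chr10:62493833-62527451) was present in most cells of each cluster, from 63.0% of Tn to 83.3% of TIM-3+ Tex after thinning. Its level was 460.1, 394, 341 and 452 CPM in Tn and 786, 650, 599 and 835 CPM in the Teff and Tex clusters. Transitory Teff (833 CPM) and TIM-3+ Tex (864 CPM) were highest, and changed places in library 2. Cycling cells had 603 CPM, below transitory Teff in each library.

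Nkg7 (ENSMUSG00000004612; plus strand, chr7:43437073-43438249) was found in 94.0% of Tn cells and in 98.8% or more of the cells of each other cluster after thinning. What varied was its amount. TIM-3+ Tex had 5562, 5303, 5590 and 5255 CPM, above every library of transitory Teff (4039 to 4203 CPM), and Tn had 1532 to 1683 CPM. The order TIM-3+ Tex, transitory Teff, and, at the lower end, GzmB+ Teff, Tcm and Tn held in all 4 libraries.

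Ctsw (ENSMUSG00000024910; minus strand, chr19:5465043-5468507) did not follow the granzymes. It was highest in Tcm, at 808, 716, 719 and 772 CPM, with no overlap with any other cluster, and lowest in cycling cells (452 CPM) over all libraries together. Within the Teff and Tex clusters, cells with Gzmk had Ctsw less often than independence within clusters would give (odds ratio 0.724; 0.590 to 0.867 in single libraries). Another gene, Fibp, overlaps Ctsw on the opposite strand. In Tcm, where Ctsw was highest, the NK cell list summed to 1045 CPM. It summed to 681 CPM in GzmA+ Tex, the cluster with macrophage transcripts, and to 361 CPM or less elsewhere. The part of the list in the Ctsw level was not tested.

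Clones were followed through the TCR. Clone size was the number of cells that shared a clonotype in a library, with single clones of 1 cell and expanded clones of more than 5. In transitory Teff, 866 cells belonged to 79 expanded clones and 368 cells were single. Gzmm was at 134, 160, 166 and 57.0 CPM in single cells of libraries 1 to 4, and at 2.97, 41.6, 50.8 and 4.78 CPM in expanded clones. Every single-cell value was above every value of the expanded clones. The log2 ratio with 5 CPM added was -2.50 over all libraries, and -4.13, -1.82, -1.62 and -2.66 in libraries 1 to 4. Gzmm was the 1 member of 8 to differ by the rule above, where 0.868% of all genes did, and its ratio ran from -2.97 to -2.12 over the other settings run.

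Gzmk was higher in expanded clones of transitory Teff in all 4 libraries without reaching the limit (log2 ratio 0.73; 412, 383, 428 and 337 CPM in single cells, and 571, 591, 678 and 703 CPM in expanded clones). Nkg7 was also higher in all 4 libraries (0.66), as was Prf1 (0.56). Gzma and Gzmb had no common direction. The Gzma ratio was 0.28 and 0.21 in libraries 1 and 3, and -2.05 and -1.79 in libraries 2 and 4. In library 1 a clone with 25 cells in this cluster held 43.2% of the Gzma UMIs of expanded cells. Without it their level was 830 CPM in place of 1309, below the 1076 CPM of single cells. In library 3 a clone of 4 cells held 42.8%, and without it the level was 458 CPM in place of 760, against 654 CPM in single cells. These clones were picked for their Gzma and removed from the expanded cells only, so the lower values show how much 1 clone held and no direction.

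In cycling cells Gzmm and Gzmk also went in opposite directions with clone size. Gzmm was at 71.4, 29.1, 19.1 and 73.6 CPM in single cells and at 1.97, 3.44, 8.54 and 3.03 CPM in expanded clones. Gzmk was at 335, 357, 180.0 and 343 CPM in single cells and at 617, 592, 612 and 814 CPM in expanded clones. Neither gene overlapped between the classes. The log2 ratios were -2.77 for Gzmm and 1.08 for Gzmk. The share of all genes that differed by the rule above was not computed for this comparison, so these ratios have no such background. The median log2 ratio of the 8 members was 0.02, beside 0.06 for all genes tested. Among single and expanded cells of transitory Teff, the NK cell list was at 169 and 146 CPM, and among cycling cells at 321 and 120 CPM, and its part in these values was not tested.

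**Figure D4:**
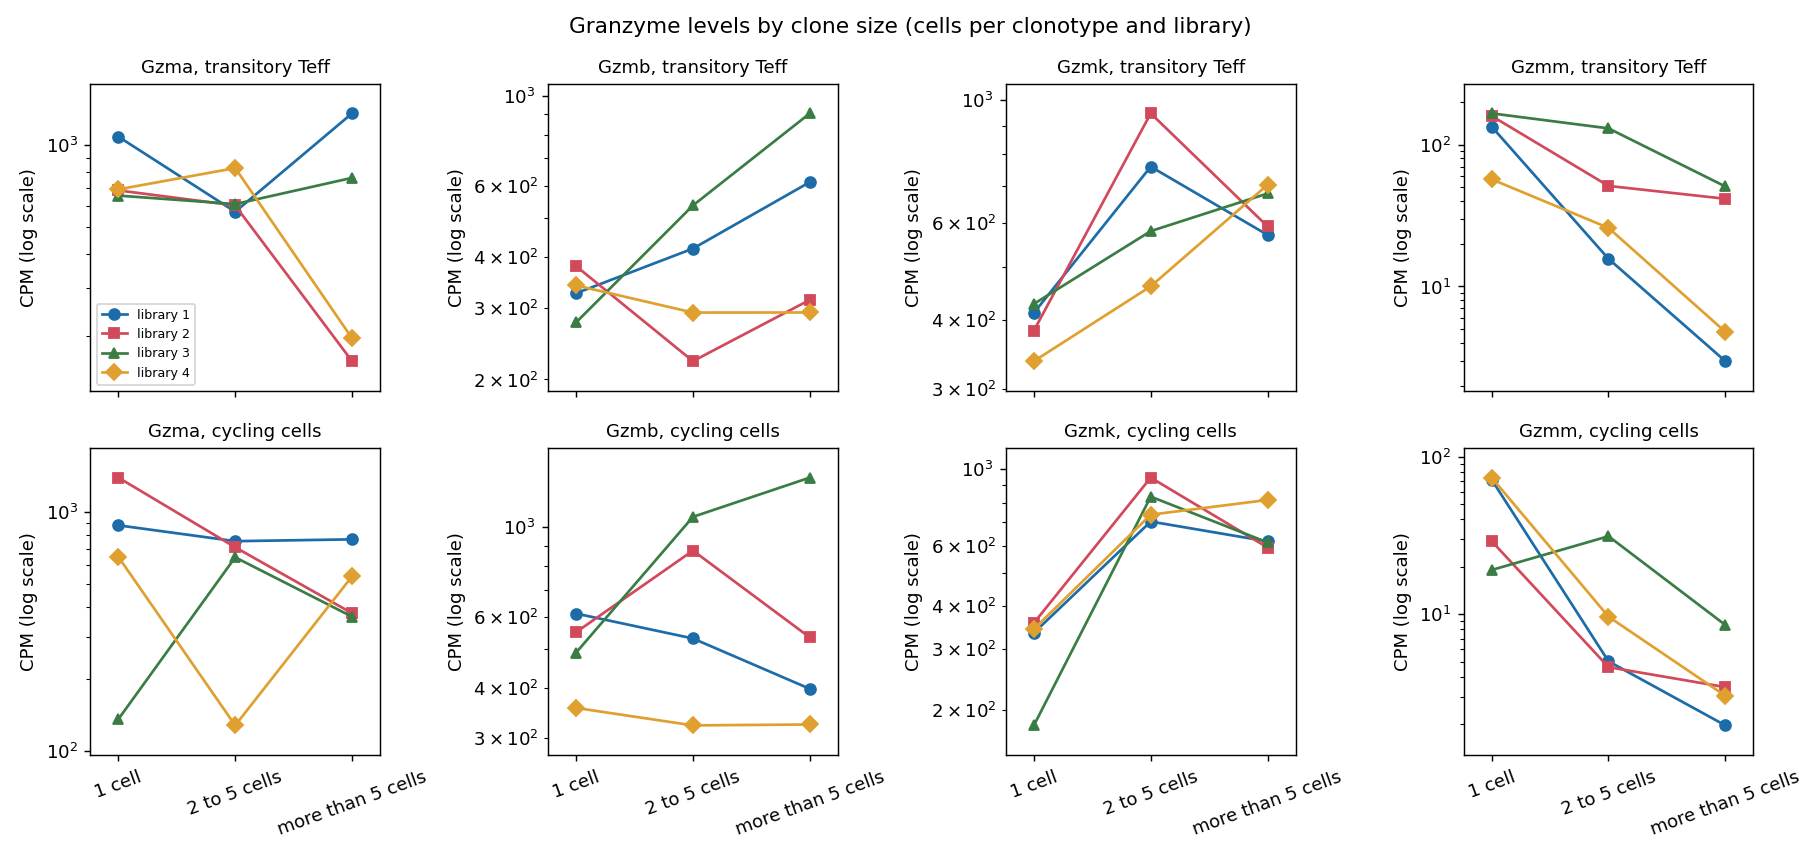
Granzyme level in CPM (log axes, scaled for each panel) by clone size, with 1 line per library, in transitory Teff (top) and cycling cells (bottom). Gzmm is lower and Gzmk higher in clones of more than 5 cells than in single cells of each library, while Gzma and Gzmb go in different directions in different libraries.

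Large clones of transitory Teff had Gzma levels that differed more than those of Gzmk. In transitory Teff, 11 clones had at least 20 cells, 395 cells in all. Their Gzma ran from 26.6 to 5439 CPM with a median of 133 CPM, a 204-fold range that rested on 1 clone of library 1, since the next highest was at 461 CPM. The counting interval of the lowest clone ran from 7.25 to 68.2 CPM. Gzmb ran from 154 to 1587 CPM (10.3-fold), Gzmk from 454 to 751 CPM (1.65-fold) and Nkg7 from 3854 to 6176 CPM (1.60-fold). The clone at 5439 CPM had 25 cells, of which 80.0% had Gzma after thinning, and it was also the highest in Gzmb. In the 9 clones with at least 20 cells in TIM-3+ Tex, Gzmk differed more, from 347 to 1438 CPM (4.14-fold), and Gzma ran from 105 to 4400 CPM (42.0-fold). Gzmm had 0 UMIs in 4 of the 11 transitory Teff clones and in 6 of the 9 TIM-3+ Tex clones.

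The same clones could be compared in both clusters where they had at least 10 cells in each, which 11 clones did (5 in library 1, 2 in library 2 and 4 in library 4). Gzma was higher in the TIM-3+ Tex cells of the clone in 11 of 11 clones, and in 9 the interval of the ratio excluded 0. Its median was 50.9 CPM in transitory Teff (26.6 to 351 CPM) and 1274 CPM in TIM-3+ Tex (105 to 3742 CPM), and the median log2 ratio was 4.65. All 11 clones were thus below the 587 CPM of transitory Teff as a whole, and the clone at 5439 CPM was not among them. Over all cells of both clusters the Gzma log2 ratio was 1.02, so the 11 clones do not stand for the clusters. In the largest of these clones, with 38 and 74 cells, Gzma was at 351 CPM in transitory Teff and 1467 CPM in TIM-3+ Tex, and 10.5% and 36.5% of its cells had Gzma after thinning. Over the 11 clones, 10.2% to 64.7% of the TIM-3+ Tex cells had Gzma after thinning. Some levels thus rested on few cells, as in a clone with 27.3% of 11 cells. The intervals do not cover the spread between the cells of a clone. In the 2 clones whose interval included 0 the levels were 318 and 425 CPM, and 70.7 and 105 CPM. The cluster names were made from the same expression values, so this is a description of where the Gzma of a clone was found.

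Other members had smaller ratios within these clones. Gzmb was higher in TIM-3+ Tex in 8 of 11 clones, beyond counting error in 3, with a median log2 ratio of 0.35. Gzmk was higher in 8, beyond counting error in 2 and lower beyond it in 1 (median 0.06). Prf1 was higher in 8 (beyond counting error in 4, lower in 1; median 0.57) and Nkg7 in 9 (beyond it in 6; median 0.19). Ctsw was higher in 2 and lower beyond counting error in 4 (median -0.35). Srgn was higher in 6, beyond counting error in 3 and lower beyond it in 4 (median 0.10). Gzmm differed beyond counting error in 0 clones, with a median of 0 CPM in both clusters. Library 3, where Gzma was low in TIM-3+ Tex, had no clone in this comparison.

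**Figure D5:**
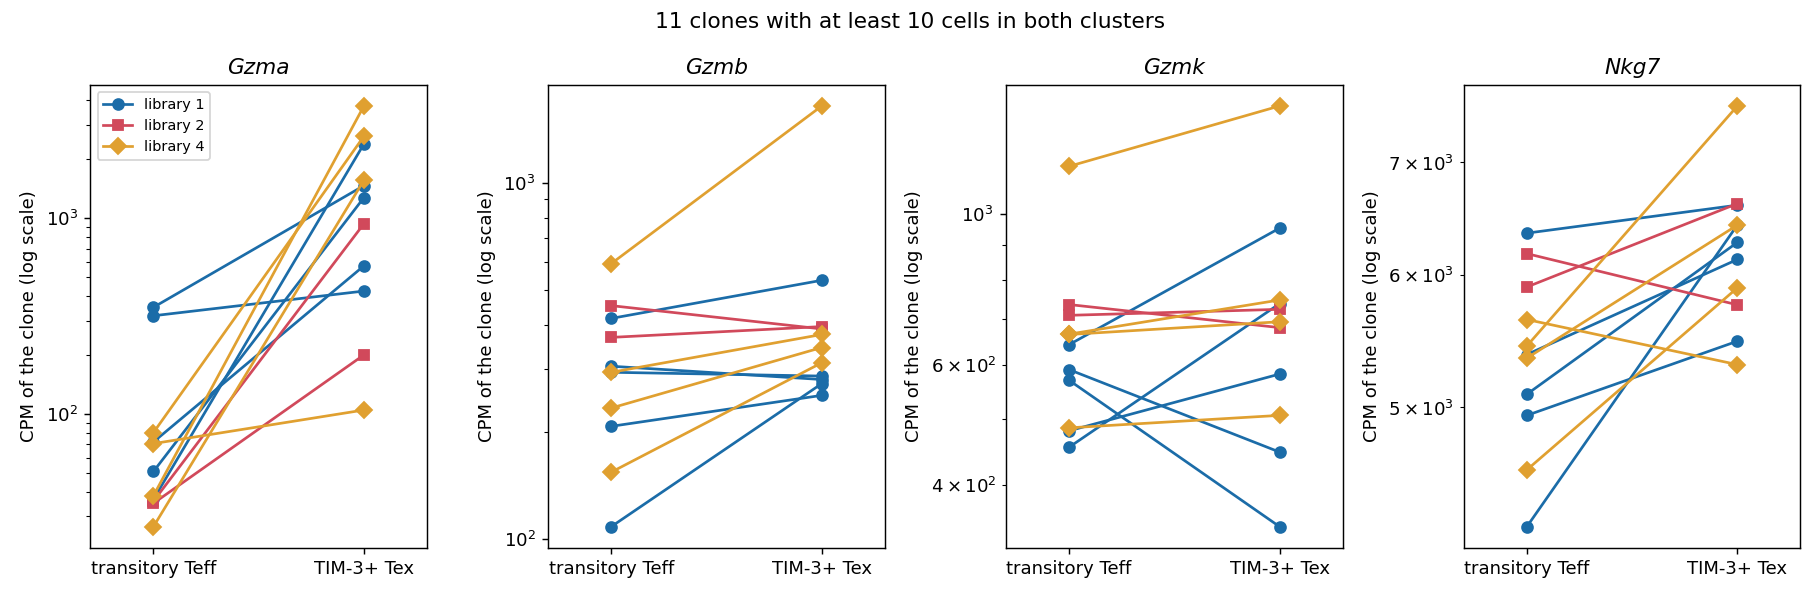
Level in CPM (log axes, scaled for each panel) of Gzma, Gzmb, Gzmk and Nkg7 in the transitory Teff and TIM-3+ Tex cells of 11 clones with at least 10 cells in both clusters; 1 line per clone, coloured by library. All 11 lines rise for Gzma (median 50.9 to 1274 CPM), and 8 of 11 rise for Gzmb and for Gzmk.

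The rest of the granule pathway was followed through a list of 20 genes. Of 6 other granzymes (Gzmc, Gzmd, Gzme, Gzmf, Gzmg and Gzmn), 2 were in the table, with 134 UMIs of Gzmc and 2 UMIs of Gzmf in all cells, and 0 passed the filter. Among genes for granzyme processing and inhibition, 4 of 6 passed the filter and 3 of these 4 were higher in the Teff and Tex clusters than in Tn, as were 6.01% of all genes tested. Ctsc, the protease that activates granzymes, was at 43.7 CPM in Tn and 117 CPM in the Teff and Tex clusters. Serpinb9, an inhibitor of granzyme B, was at 19.6 and 49.7 CPM, and Serpinb6b at 46.6 and 115 CPM. Cst7, which encodes cystatin F, an inhibitor of Ctsc, had a log2 ratio of 0.53 and was not counted.

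Of 8 genes for granule transport and fusion, 7 passed the filter and 4 of them were higher, beside the same 6.01% of all genes. These were Rab27a, a GTPase that docks granules (19.5 and 54.5 CPM), Stx11, a syntaxin needed for granule release (3.67 and 26.5 CPM), Vamp8 (113 and 316 CPM) and Lamp2 (15.4 and 42.1 CPM). Unc13d (0.65), Stxbp2 (0.42) and Lamp1 (-0.02), whose protein serves as a degranulation marker, had log2 ratios under the limit. Of the genes of both groups that passed the filter, 0 of 4 and 0 of 7 differed between cycling cells and the Teff and Tex clusters (4.71% of all genes), between TIM-3+ Tex and transitory Teff (1.03%), and between expanded and single clones of transitory Teff (0.868%). At these shares of all genes, counts of 0 say little about so few genes.

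Finally, the genes outside the members whose levels were most like those of each member were found by Pearson's r of log2(CPM + 5) over the 32 values of 8 clusters in 4 libraries. These values share libraries and clusters, so r is a description. Gzmk was closest to Pdcd1 (0.98), which encodes PD-1, 2010111I01Rik (0.97) and Lag3 (0.96). Prf1 was closest to Havcr2 (0.93), which encodes TIM-3, then to Twsg1 and Cd8a. Gzma was closest to Plscr1 (0.92), Litaf and Sh3glb1, and Gzmb to Glrx (0.94), Gng2 and Tap1. Nkg7 was closest to Sh2d2a and to the CD3 chains Cd3g and Cd3e (0.97, 0.97 and 0.96), and Ctsw to Rab37 (0.90), Gpr18 and Tespa1. Gzmm was closest to Dnajc15 (0.92), Rara and Nsg2, and Srgn to Atp6v0e, Arpc1b and Ergic3 (0.87, 0.86 and 0.85). Among the members, r was 0.91 for Gzma with Gzmk, -0.79 for Gzmm with Gzmk and -0.80 for Gzmm with Nkg7.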

How the data were processed

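CD8+ T cells sorted from BM were captured with a 5′ droplet kit. Per the labels, Cell Ranger 7.00 and mm10 were used. The authors downsampled reads to even out depth between libraries, then kept cells that expressed Cd8a with Cd3e or Cd3g, had 2500 to 25000 UMIs and had less than 15% mitochondrial RNA. The deposited expression table holds whole UMI counts per cell, made by the authors after that downsampling and not scaled further. The deposited cell table gives the mitochondrial share as a fraction, which was not used further, with the authors' cluster names and library numbers; chains of the TCR are in a table of their own. The members and gene lists were chosen with earlier results of these data known. The genes named are the 8 members, the granule list, and the 3 genes most like each member.

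GENCODE M21 (GRCm38) named 17534 of 17561 genes. UMIs were summed per cluster and library and divided by all UMIs (CPM). Genes with at least 10 CPM over all cells were compared; 5 CPM were added to both sides of ratios. For shares, cells were thinned to 2500 UMIs (seed 11). Intervals are exact Poisson (CPM), conditional binomial (ratios) and Clopper-Pearson (shares), and Mantel-Haenszel odds ratios were taken over clusters and libraries. Doublets were not removed, and no removal is stated in the sources used here. Free RNA was not measured, and the shares in Tn were used as a level for comparison. The alternatives changed depth, cell labels, clone weights, filters, pseudocount and the cells used, and left out each library; 2 were added after seeing the data. The calculation of ratios was tested on simulated data. Treatments were not compared, because the labels do not tie a library number to a treatment. The scripts used Python 3.11.15, scipy 1.17.1 and numpy 2.4.6, with pandas 2.3.3 for tables, statsmodels 0.14.6 and, for the plots, matplotlib 3.10.9.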

Additional observations from a re-analysis of the deposited data

How the results depend on the processing

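The number of members higher in the Teff and Tex clusters than in Tn was 5 in all settings run except with each clonotype counted with weight 1, where it was 4 (without Prf1). That setting also put Gzmm at -0.96, inside the limit. The number that differed in cycling cells was 0, but 1 (Gzmm) with each clonotype counted with weight 1 and without cells with macrophage or plasma cell transcripts, and 0 to 1 when a library was left out, the 1 being without library 1. For TIM-3+ Tex against transitory Teff the number was 1, but 2 as mean UMIs per cell (with Prf1 at 1.30), 3 with each clonotype counted with weight 1 (with Gzmb at 1.10 and Prf1 at 1.01), 0 in clonotypes found in both clusters of a library, and 1 to 2 when a library was left out, the 2 being without library 3. For expanded against single clones it was 1 in all settings run, including each library left out (1 to 1). The odds ratio of Gzma and Gzmb was 2.35, and 2.82 with no thinning, 2.77 with detection at 2 UMIs or more, 3.56 with 1 cell per clonotype, and 2.22 to 2.52 when a library was left out. Of 504 ratios of single members under other settings, 345 stayed within counting error of the value reported, 159 moved beyond it, and no ratio counted as different changed sign. The 345 include the settings that changed only the filter, which cannot alter a ratio. All members passed each filter used, so those settings could not alter the counts of members either. Clusters and clone sizes were compared inside each of the 4 libraries, and those values are given without a paired test. With 31 TIM-3+ Tex cells in library 3, small differences there were not detectable at this depth.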

Other observations

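Tcm cells, which were low in Gzma, Gzmb and Gzmk and second highest in Gzmm, differed among themselves in the granzymes they carried. The 2149 Tcm cells with 2 or more UMIs of the NK cell list after thinning had 135 CPM of Gzmb, against 92.2 CPM in the 569 cells with none, and the values were higher in libraries 1, 3 and 4 and lower in library 2 (61.7 against 78.2 CPM). Gzmk went the other way, at 24.3 against 48.9 CPM, and was lower in the cells with NK list UMIs in all 4 libraries. Ctsw was higher in these cells in all 4 libraries, at 801 against 714 CPM. In small clones of Tcm (2 to 5 cells), Gzmm was at 203 CPM against 129 CPM in single Tcm cells, higher in all 4 libraries, whereas small clones of transitory Teff had 39.8 against 121 CPM. These cells were split by transcripts measured in the same libraries, so the values are a description.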
